A study of Mus musculus with 24 samples.

Results

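Macrophage genes were followed in brown adipose tissue, the heat-producing fat depot, of C57BL/6J mice from a study of obese, insulin-resistant animals. The set was a list of 32 symbols that mark macrophages, taken by name, and all 32 had a row in a table of 23017 genes. Poly(A) RNA was sequenced in 24 libraries, 6 in each of 4 groups. TZP mice were given tirzepatide, a dual agonist of the GIP and GLP-1 receptors, and LAGIPRA mice an agonist with prolonged action at the GIP receptor alone. PairFedVehicle received vehicle with pair feeding, in which food is limited to the amount another group eats, and Vehicle received vehicle alone. Not given in the sources used here are dose, duration, age, sex, diet and the group that set the pair-fed intake, and whether the agonists were dosed alike is unknown. The labels do not say whether libraries came from separate animals, and p-values measure the spread between these libraries.

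Macrophages are phagocytes of the innate immune system that live in every tissue. The transcription factor PU.1, product of Spi1, sets up the lineage, and the receptor Csf1r, bound by Csf1 and Il34, keeps the cells alive. In adipose tissue, macrophages that carry Lyve1, Folr2 and Timd4 are known as resident, self-maintaining cells that often lie along vessels. Cells that carry Trem2 and Gpnmb are known as lipid-associated macrophages, which take up and break down lipid and become abundant in obesity.

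Values are deposited log2 values, and the offset inferred for the scale understates fold changes of weakly expressed genes. Of the 32 members, 31 passed a filter that left out the 25% of genes with the lowest mean. Timd4 did not pass and is described by its values. A gene was called when its limma adjusted p, over the 17263 tested genes, was below 0.05. Macrophage genes were present in every group: means over the 32 genes were 7.146 in TZP, 6.832 in LAGIPRA, 7.328 in PairFedVehicle and 7.596 in Vehicle, and no member was below 1 in all libraries of a group. The lymphocyte list, with 10 of 10 genes in the table, averaged 1.67 to 3.94 over all libraries. Markers of brown adipocytes were high, with Ucp1 between 14.70 and 15.91.

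Libraries differed in ways that touch these genes. The 1-read level, the commonest low value in a library, is used as a stand-in for its unknown depth, on the assumption that it is higher where fewer reads were sequenced. It averaged 1.51 in TZP, 1.57 in LAGIPRA, 1.23 in PairFedVehicle and 1.07 in Vehicle. By library it was 1.17, 1.22 and 1.21 in LAGIPRA 1 to 3 and 2.20, 1.61 and 2.03 in LAGIPRA 4 to 6. In TZP 1 to 6 it was 1.74, 1.88, 1.44, 1.84, 1.23 and 0.948. The range was 1.02 to 1.40 in PairFedVehicle and 0.853 to 1.55 in Vehicle. The 8 skeletal muscle markers, all in the table, had list means of 0.817 to 9.83 in TZP, 6.44 to 9.77 in LAGIPRA, 0.560 to 10.64 in PairFedVehicle and 0.862 to 10.28 in Vehicle. The low ends were TZP 3, PairFedVehicle 5 and Vehicle 1, each close to free of muscle RNA. The slope of values on transcript length was negative in TZP 3 to 6 and averaged -0.065 in TZP, against 0.0435 in Vehicle. Endothelial markers were called lower in TZP than in Vehicle for 6 of 8 genes and erythroid markers for 5 of 5, where 10.3% of all tested genes were. The part of these differences in the macrophage results was not tested beyond the fits named beside them.

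The macrophage genes were lowest in LAGIPRA. The group mean was lowest in LAGIPRA for 27 of 32 members and highest in Vehicle for 27 of 32. Mrc1 and Cybb were lowest in TZP, and Cd163, Lyve1 and Timd4 in PairFedVehicle. Cd163 and Timd4 were highest in LAGIPRA, Gpnmb and Clec10a in PairFedVehicle, and Lyve1 in TZP. Groups were not uniform. LAGIPRA 5 was the lowest of the 24 libraries for 17 members and LAGIPRA 4 for 6, whereas PairFedVehicle 5 was the highest for 14, Vehicle 1 for 6 and Vehicle 3 for 5. Vehicle 5 had a median rank of 7.5 among the 24 libraries over the members, against 15 to 22.75 for the other Vehicle libraries. In bulk tissue, fewer macrophages and less of each RNA per macrophage cannot be told apart.

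**Figure D1:**
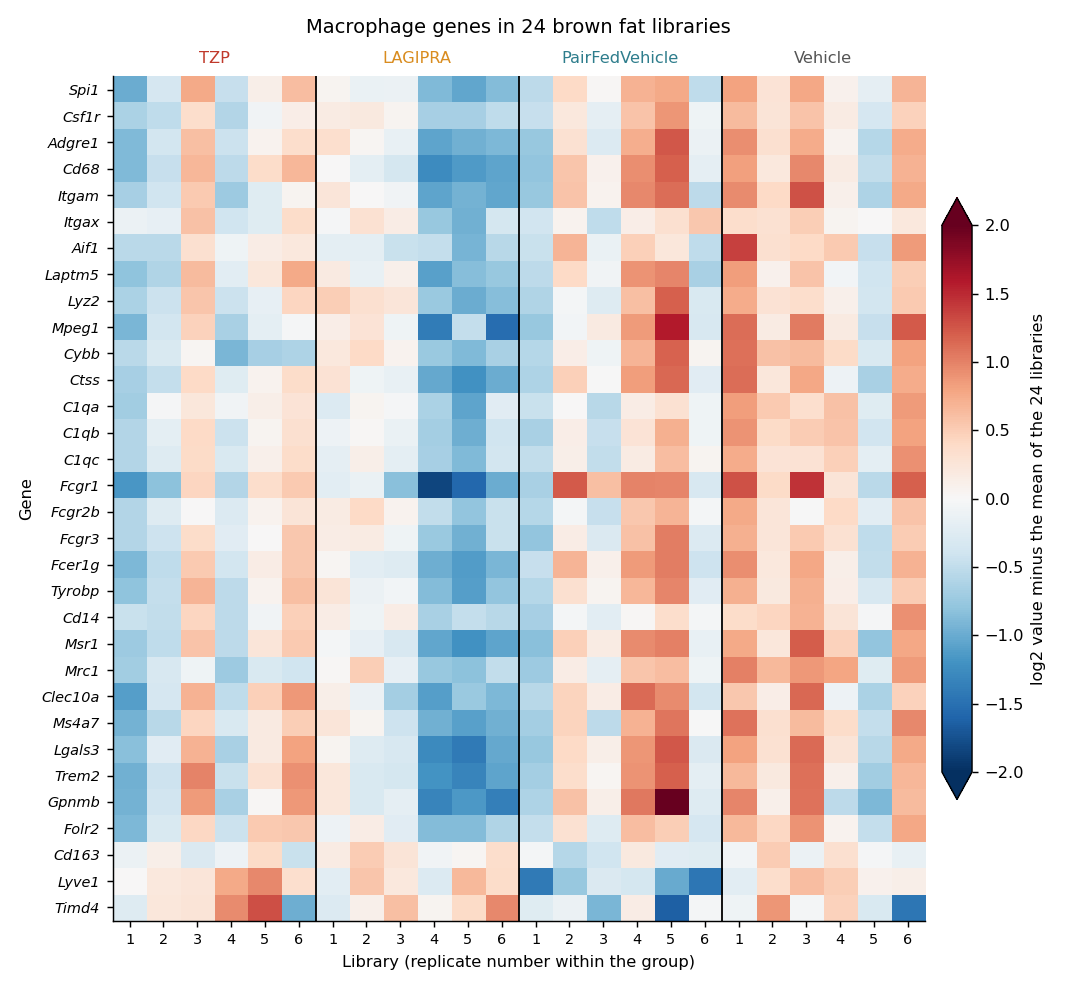
Each cell is the log2 value of a macrophage gene (rows) in a library (columns, by replicate number within TZP, LAGIPRA, PairFedVehicle and Vehicle) minus the gene's mean over the 24 libraries, with colours capped at 2 units either way. Most rows are low in LAGIPRA 4 to 6 and high in PairFedVehicle 5 and Vehicle 1, while Lyve1 is low in PairFedVehicle.

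LAGIPRA against Vehicle asks what GIP receptor agonism alone did. In LAGIPRA, 13 of the 31 tested members fell relative to Vehicle and 0 rose (limma), where 5.03% of all tested genes were called lower and 8.7% higher. At an unadjusted p below 0.05, 27 members were lower, where 31.5% of all tested genes passed in either direction. The median log2 fold change of the members was -0.84, with 30 of 31 negative, and that of all tested genes was 0.03. Marker lists of other cells went both ways in LAGIPRA against Vehicle. The 6 fibroblast markers had a median of -0.30, with 5 of 6 negative, 0 called and 3 at an unadjusted p below 0.05 (limma). The 3 tested lymphocyte markers had a median of -0.65, with 3 of 3 negative, 0 called and 1 at unadjusted p below 0.05 (limma). Medians were -0.34 for dendritic cell, -0.07 for neutrophil, -0.02 for endothelial and for lymphatic, and -0.01 for white adipocyte markers. They were 0.02 for mast cell, 0.26 for brown adipocyte, 0.52 for erythroid and 1.85 for skeletal muscle markers. Their part in the macrophage values was not tested. None of the 31 had LAGIPRA libraries wholly below the Vehicle libraries, where 1.49% of all tested genes did, and none had them wholly above, where 3.16% did. The count rested on single libraries: it was 4 without Vehicle 1, Vehicle 6, LAGIPRA 4 or LAGIPRA 5, 5 without Vehicle 3, 6 without Vehicle 2 or LAGIPRA 6, and 24 without Vehicle 5. With the 1-read level as a covariate it was 0, with 6 members at an unadjusted p below 0.05 and 23 of all 17263 genes called lower. It was 6 with the muscle marker mean as a covariate and 6 without the 3 libraries lowest in muscle markers. Of the 13 calls, those of C1qa, Mrc1 and Fcgr1 were lost in 1 of 39 alternatives, Aif1 in 2 of 38, C1qc in 5 of 39, C1qb in 6, Cd14 in 9, Fcer1g and Lgals3 in 12, Cd68 and Msr1 in 13, Spi1 in 14 and Ms4a7 in 15. Leaving out Vehicle 1, Vehicle 6, LAGIPRA 4 or LAGIPRA 5 ended each of the 9 from C1qc to Ms4a7.

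TZP against Vehicle asks what the dual agonist did. In TZP, 2 of the 31 fell, Mrc1 and Cybb, and 0 rose, a share below the 10.3% of all tested genes called lower, with 11.7% called higher. At an unadjusted p below 0.05, 11 members passed (limma), close to the 35.7% of all tested genes that did. No member was free of overlap, where 2.05% of all tested genes lay wholly lower in TZP and 3.39% wholly higher. The median log2 fold change of the members was -0.46, with 30 of 31 negative, against 0.04 over all tested genes. The count was 10 without Vehicle 5 and 7 after correction of the values for transcript length. It was 1 when the 1-read level was a covariate, where the Cybb call was lost. With TZP 1 and 2 as the only TZP libraries it was also 1, but the calls of Mrc1 and Cybb were both lost there. When the length slope was a covariate the count was 0, where 7 members were lower at an unadjusted p below 0.05 (limma). PairFedVehicle against Vehicle asks what limited food intake did without drug. In PairFedVehicle, 1 of the 31 fell, Lyve1, where 3.66% of all tested genes were called lower, and 0 rose, where 4.96% were called higher. Lyve1 was also the 1 member without overlap, where 2.35% of all tested genes lay wholly lower and 2.41% wholly higher. The median there was -0.23, against 0.02 over all tested genes, and 4 members had an unadjusted p below 0.05 (limma), where 23% of all tested genes did. These 3 comparisons share the Vehicle libraries, so they are not independent.

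**Figure D2:**
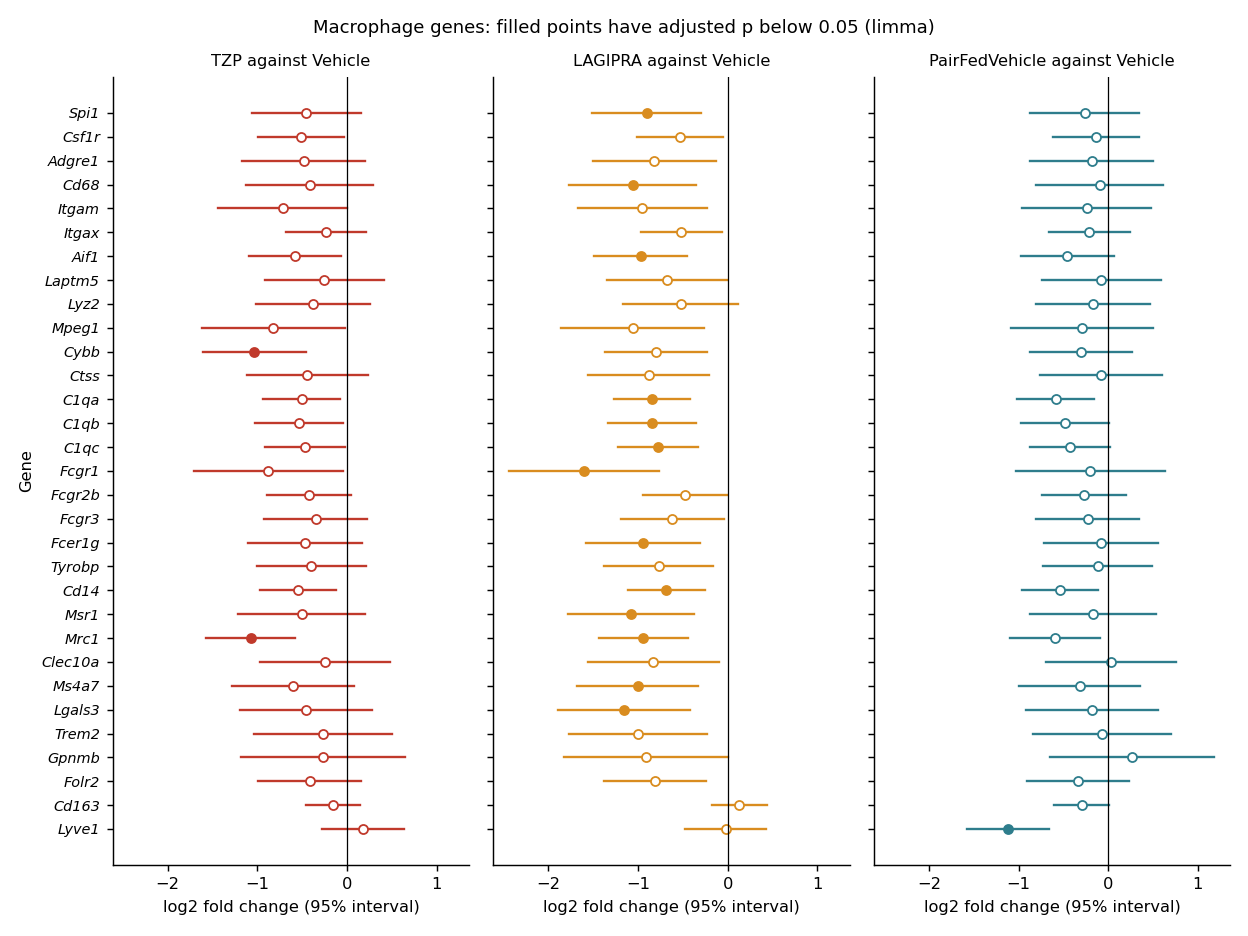
Points are log2 fold changes of the 31 tested macrophage genes against Vehicle, with 95% intervals from limma, in TZP, LAGIPRA and PairFedVehicle; filled points have an adjusted p below 0.05. Filled points number 2 in TZP, 13 in LAGIPRA and 1 in PairFedVehicle, and nearly all points lie left of 0.

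Of the lineage genes, Spi1 and Cd68 fell in LAGIPRA, with calls that were lost in 14 and 13 of 39 alternatives. Spi1, with lowest, median and highest values of 5.45, 5.98 and 6.55 in LAGIPRA and 6.31, 6.96 and 7.29 in Vehicle, had a log2 fold change of -0.90 (SE 0.29, limma adjusted p = 0.0438). The groups overlapped through LAGIPRA 1 to 3, which lay above Vehicle 5 and below the other Vehicle libraries. Cd68, a lysosomal membrane protein, had 7.76, 8.31 and 9.03 in LAGIPRA and 8.52, 9.47 and 9.97 in Vehicle, a log2 fold change of -1.06 (SE 0.34, adjusted p = 0.0429). In TZP, Spi1 averaged 6.44 ± 0.67 and Cd68 averaged 8.99 ± 0.67 (SD, n = 6 each), and neither passed the test.

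The receptor gene Csf1r spanned 6.89, 7.24 and 7.88 in TZP, 6.86, 7.30 and 7.72 in LAGIPRA, 7.06, 7.59 and 8.41 in PairFedVehicle, and 7.19, 7.88 and 8.16 in Vehicle. All 4 groups overlapped. Its log2 fold change was -0.51 (SE 0.23, adjusted p = 0.117) in TZP and -0.53 (SE 0.23, adjusted p = 0.121) in LAGIPRA against Vehicle. Adgre1, an adhesion receptor of mature macrophages, averaged 6.45 ± 0.60 in LAGIPRA and 7.27 ± 0.56 in Vehicle (SD, n = 6 each), with an adjusted p of 0.0937. The integrin gene Itgam had log2 fold changes of -0.72 in TZP and -0.95 in LAGIPRA, neither past the threshold. Aif1, which encodes the actin-binding protein IBA1, fell in LAGIPRA, where it had 3.57, 4.05 and 4.31 against 4.06, 4.97 and 5.87 in Vehicle (log2 fold change -0.97, SE 0.25, adjusted p = 0.0166).

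The complement genes C1qa, C1qb and C1qc encode the 3 chains of C1q, which tags debris and dying cells for uptake, and lie side by side on chromosome 4. All 3 fell in LAGIPRA. C1qa had 8.76, 9.56 and 9.87 in LAGIPRA and 9.57, 10.36 and 10.66 in Vehicle, a log2 fold change of -0.84 (SE 0.21, adjusted p = 0.0141). LAGIPRA and Vehicle overlapped only through Vehicle 5, whose 9.57 was below the 3 highest LAGIPRA libraries. C1qb and C1qc had log2 fold changes of -0.84 (adjusted p = 0.0247) and -0.78 (adjusted p = 0.0218). In TZP the 3 genes had log2 fold changes of -0.51, -0.54 and -0.47 in the order C1qa, C1qb, C1qc, and in PairFedVehicle -0.59, -0.48 and -0.43, none past the threshold. C1qa came nearest, with an adjusted p of 0.0797 in TZP and 0.0801 in PairFedVehicle.

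Among Fc receptors, which bind antibody on opsonised targets, Fcgr1 had the lowest log2 fold change of all members. It had 5.49, 6.55 and 7.19 in TZP, 4.83, 5.75 and 6.53 in LAGIPRA, 6.02, 7.45 and 7.88 in PairFedVehicle, and 6.13, 7.46 and 8.10 in Vehicle. No LAGIPRA library was above 6.53, and 5 of 6 Vehicle libraries were. The log2 fold change was -1.60 (SE 0.40, adjusted p = 0.0153) for LAGIPRA against Vehicle and -1.40 (SE 0.40, adjusted p = 0.0246) for LAGIPRA against PairFedVehicle. The first call was lost in 1 of 39 alternatives, with the 1-read level as a covariate, where its adjusted p was 0.216. Fcer1g, the signalling chain shared by several Fc receptors, fell in LAGIPRA by 0.95 on the log2 scale (SE 0.31, adjusted p = 0.0435). Tyrobp, the adaptor through which Trem2 signals, had -0.77 (adjusted p = 0.078), and Fcgr2b and Fcgr3 had -0.48 and -0.62 there, none past the threshold.

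PU.1 binds DNA at a core of the letters GAGGAA, which was searched for on both strands, as TTCCTC on the other, in the 250 bases before each gene's start. RefSeq windows on GRCm38.p6 matched 23 of the 32 members, and 11 of them (47.8%) held the core, as did 6986 of 27025 genes with a window (25.9%). The core of 6 letters was chosen after its counts and those of other forms had been seen; GAGGAAGT, which contains it, was in 1 of 23 member windows (4.35%, C1qc) and in 2.79% of all windows. A match is a description and not a binding site. The windows of members that carry the results above and below, from 2 neighbouring C1q genes to Trem2, read as follows 5′ to 3′, with the core in capitals on either strand. Only windows that held the core are printed. The window of Mrc1 held 3 copies. Of called members, Aif1 and Cd68 also held the core, and Cybb, Fcer1g, Lgals3 and Ms4a7 did not. Of uncalled members, Trem2, Ctss, Fcgr3, Itgam and Laptm5 held it. Folr2, Gpnmb, Timd4, Cd163, Fcgr2b, Itgax, Lyz2 and Mpeg1, also uncalled, did not.
C1qb, chr4:136886201-136886450, strand -: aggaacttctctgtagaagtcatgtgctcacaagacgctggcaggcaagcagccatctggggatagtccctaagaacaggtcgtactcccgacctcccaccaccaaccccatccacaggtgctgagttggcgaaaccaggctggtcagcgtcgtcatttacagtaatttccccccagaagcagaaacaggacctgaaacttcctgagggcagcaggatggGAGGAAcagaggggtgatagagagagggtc
C1qc, chr4:136892915-136893164, strand -: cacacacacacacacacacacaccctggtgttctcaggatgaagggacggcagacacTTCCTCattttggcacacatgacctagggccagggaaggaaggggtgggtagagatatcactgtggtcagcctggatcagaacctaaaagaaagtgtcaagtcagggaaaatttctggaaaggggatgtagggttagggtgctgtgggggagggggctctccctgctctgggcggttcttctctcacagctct
Fcgr1, chr3:96293970-96294219, strand -: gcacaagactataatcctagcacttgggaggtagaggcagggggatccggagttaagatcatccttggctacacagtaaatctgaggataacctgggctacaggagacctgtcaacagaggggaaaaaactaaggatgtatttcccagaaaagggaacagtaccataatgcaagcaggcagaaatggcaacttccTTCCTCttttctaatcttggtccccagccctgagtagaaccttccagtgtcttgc
Mrc1, chr2:14229164-14229413, strand +: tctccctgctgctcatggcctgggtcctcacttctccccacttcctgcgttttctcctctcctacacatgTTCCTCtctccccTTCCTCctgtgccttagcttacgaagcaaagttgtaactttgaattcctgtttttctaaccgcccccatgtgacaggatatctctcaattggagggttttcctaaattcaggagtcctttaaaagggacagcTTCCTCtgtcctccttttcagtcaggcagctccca
Trem2, chr17:48346151-48346400, strand +: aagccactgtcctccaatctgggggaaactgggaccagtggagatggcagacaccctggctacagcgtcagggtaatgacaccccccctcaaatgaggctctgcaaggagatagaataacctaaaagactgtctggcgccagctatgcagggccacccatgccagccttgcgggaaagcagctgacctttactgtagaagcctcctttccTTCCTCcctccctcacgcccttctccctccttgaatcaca

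Mrc1 was called in both agonist groups. Mrc1, the mannose receptor CD206, had 5.93, 6.29 and 6.56 in TZP, 5.83, 6.32 and 7.15 in LAGIPRA, 5.93, 6.69 and 7.28 in PairFedVehicle, and 6.41, 7.47 and 7.67 in Vehicle. Vehicle 5, at 6.41, was the only Vehicle library within the TZP range; the other 5 were at 7.30 or higher. The log2 fold change was -1.08 in TZP (SE 0.24, adjusted p = 0.00396) and -0.94 in LAGIPRA (SE 0.24, adjusted p = 0.0163). The TZP call was lost in 2 of 39 alternatives, when the length slope was a covariate (adjusted p = 0.200) and with TZP 1 and 2 alone (adjusted p = 0.0664), where the log2 fold change was -1.17.

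Cybb, the catalytic subunit of the phagocyte NADPH oxidase, had 5.11, 5.45 and 6.07 in TZP, 5.14, 5.74 and 6.43 in LAGIPRA, and 5.72, 6.64 and 7.13 in Vehicle. The TZP and Vehicle ranges overlapped between 5.72 and 6.07. The change in Cybb was -1.04 on the log2 scale in TZP (SE 0.28, adjusted p = 0.0108) and -0.80 in LAGIPRA (SE 0.28, adjusted p = 0.0556). The TZP call was lost in 3 of 39 alternatives, with the length slope or the 1-read level as a covariate and with TZP 1 and 2 alone. Msr1, scavenger receptor A, fell by 1.08 on the log2 scale in LAGIPRA (SE 0.34, adjusted p = 0.0388), averaging 4.27 ± 0.52 there and 5.35 ± 0.69 in Vehicle (SD, n = 6 each). The LPS co-receptor gene Cd14 fell by 0.68 in LAGIPRA (SE 0.21, adjusted p = 0.0322). Ms4a7, a membrane protein of macrophages, had a log2 fold change of -1.004 (SE 0.33, adjusted p = 0.0439) and Lgals3, galectin 3, of -1.15 (SE 0.36, adjusted p = 0.0360) in LAGIPRA. Of the genes in these paragraphs, Mrc1 was called in both agonist groups, Cybb in TZP, and Msr1, Cd14, Ms4a7 and Lgals3 in LAGIPRA.

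The members not yet named were Lyz2, Itgax, Mpeg1, Clec10a, Ctss and Laptm5, which passed in no comparison. Mpeg1, the pore-forming perforin-2, had log2 fold changes of -0.82 in TZP and -1.06 in LAGIPRA (adjusted p = 0.128 and 0.0662). The lysosomal protease gene Ctss had -0.44 in TZP and -0.88 in LAGIPRA (adjusted p = 0.351 and 0.0709). Itgax, Clec10a and Lyz2, which dendritic cells or neutrophils also express, had -0.52, -0.83 and -0.53 in LAGIPRA, and Laptm5, a lysosomal membrane protein of leukocytes, had -0.68. The dendritic cell list, with 7 of 7 genes in the table, had list means of 3.39 to 4.17 in TZP, 3.22 to 4.25 in LAGIPRA and 3.59 to 4.47 in Vehicle, with 1 gene called higher in TZP than in Vehicle (Itgae) and none called in LAGIPRA against Vehicle, where 1 had an unadjusted p below 0.05 (limma). Of all tested genes, 11.7% were called higher in TZP than in Vehicle, and 31.5% had an unadjusted p below 0.05 in LAGIPRA (limma). The part of dendritic cells in these values was not tested.

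The resident-type markers did not move as one. Folr2, a folate receptor, tracked Trem2 and Gpnmb across libraries, whereas Lyve1, a hyaluronan receptor, was low in PairFedVehicle. Lyve1 had 4.69, 4.96 and 5.65 in TZP, 4.41, 4.97 and 5.32 in LAGIPRA, 3.23, 3.80 and 4.40 in PairFedVehicle, and 4.47, 4.92 and 5.29 in Vehicle. All 6 PairFedVehicle libraries were below all 18 others, with 4.40 in PairFedVehicle 3 next to 4.41 in LAGIPRA 4. The fold change of Lyve1 on the log2 scale was -1.12 (SE 0.22, adjusted p = 0.00250) for PairFedVehicle against Vehicle. It was 1.29 (SE 0.22, adjusted p = 0.000469) for TZP against PairFedVehicle, where 8.39% of all tested genes were called higher, and 1.09 (SE 0.22, adjusted p = 0.00198) for LAGIPRA against PairFedVehicle, where 7.3% were. Genes wholly higher than in PairFedVehicle, as Lyve1 was, made up 3.17% of all tested genes in TZP and 3.7% in LAGIPRA. Against Vehicle, the log2 fold change of Lyve1 was 0.18 in TZP, with a 95% interval of -0.28 to 0.63, and -0.02 in LAGIPRA, with an interval of -0.48 to 0.43.

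Lyve1 also marks lymphatic endothelium. Of the lymphatic list, with 5 of 5 genes in the table, 0 of the 3 tested were called between PairFedVehicle and Vehicle and 0 had an unadjusted p below 0.05 (limma). All 3 had negative log2 fold changes, with a median of -0.24. The part of lymphatic endothelium in the Lyve1 values was not tested. The list mean ran from 2.62 to 3.60 in PairFedVehicle and from 3.26 to 3.77 in Vehicle. Flt4 averaged 4.39 ± 0.20 in PairFedVehicle and 4.41 ± 0.15 in Vehicle (SD, n = 6 each), Ccl21a averaged 5.64 ± 1.73 in PairFedVehicle and 6.69 ± 0.39 in Vehicle, and the defining factor Prox1 was near 0, at 0.51 in PairFedVehicle and 0.61 in Vehicle. The low Lyve1 in PairFedVehicle kept its call in all 39 alternatives, with adjusted p at most 0.0115. Its gain in TZP over PairFedVehicle was lost in 1, with TZP 1 and 2 alone (adjusted p = 0.0622).

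Timd4, a receptor for phosphatidylserine on dying cells, was near the detection floor. It had 1.27, 2.49 and 3.53 in TZP, 1.98, 2.49 and 3.22 in LAGIPRA, 0.62, 2.07 and 2.40 in PairFedVehicle, and 0.80, 2.19 and 3.13 in Vehicle. All groups overlapped. In a fit with no filter on low values its log2 fold change was 0.71 (SE 0.39, limma adjusted p = 0.271) for TZP against PairFedVehicle and 0.77 (SE 0.39, adjusted p = 0.254) for LAGIPRA against PairFedVehicle. Cd163, a haemoglobin scavenger receptor carried by resident macrophages, averaged 5.41 ± 0.29 in TZP, 5.70 ± 0.21 in LAGIPRA, 5.27 ± 0.27 in PairFedVehicle and 5.57 ± 0.27 in Vehicle (SD, n = 6 each). It came closest to the threshold for LAGIPRA against PairFedVehicle, at a log2 fold change of 0.43 (SE 0.15, adjusted p = 0.0636).

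Folr2 had 5.91, 6.86 and 7.36 in TZP, 5.94, 6.40 and 6.96 in LAGIPRA, 6.33, 6.84 and 7.43 in PairFedVehicle, and 6.34, 7.35 and 7.71 in Vehicle. All 4 groups overlapped. A log2 fold change of -0.81 in LAGIPRA (SE 0.28, adjusted p = 0.0524) lay just outside the threshold and passed it in 13 of 39 alternatives. Trem2, a lipid-sensing receptor, had 6.15, 7.05 and 8.10 in TZP, 5.80, 6.40 and 7.33 in LAGIPRA, 6.44, 7.31 and 8.31 in PairFedVehicle, and 6.41, 7.53 and 8.22 in Vehicle. LAGIPRA 4, 5 and 6 were lower than every library of the other groups, while LAGIPRA 1 to 3 lay among them. The log2 fold change of Trem2 against Vehicle was -0.27 in TZP (SE 0.37, adjusted p = 0.640), -1.003 in LAGIPRA (SE 0.37, adjusted p = 0.0700) and -0.07 in PairFedVehicle (SE 0.37, adjusted p = 0.944). The TZP and PairFedVehicle intervals, of -1.04 to 0.50 and -0.84 to 0.70, leave room for changes in either direction.

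Gpnmb, a glycoprotein of lysosome-rich macrophages, had 9.01, 9.77 and 10.82 in TZP, 8.57, 9.22 and 10.18 in LAGIPRA, 9.33, 10.30 and 12.03 in PairFedVehicle, and 9.05, 10.31 and 11.03 in Vehicle. PairFedVehicle 5, a library nearly free of muscle RNA, was the highest of the 24. The log2 fold change of Gpnmb was -0.91 (SE 0.44, adjusted p = 0.160) in LAGIPRA against Vehicle and -1.18 (SE 0.44, adjusted p = 0.0855) in LAGIPRA against PairFedVehicle. Neither Trem2 nor Gpnmb was called in any of the 6 comparisons.

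**Figure D3:**
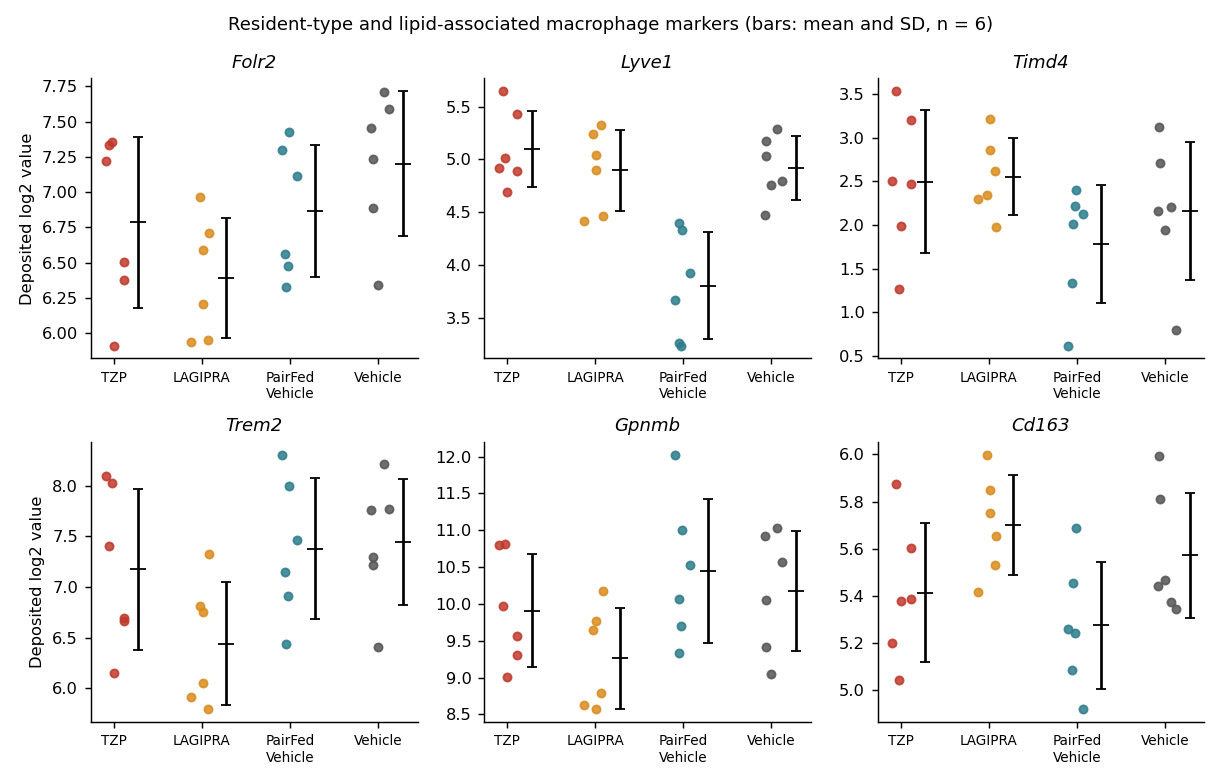
Deposited log2 values of the resident-type markers Folr2, Lyve1, Timd4 and Cd163 and the lipid-associated markers Trem2 and Gpnmb, 1 point per library, with mean and SD beside each group of 6. PairFedVehicle lies apart from the other groups for Lyve1 alone; for Trem2, Gpnmb and Folr2 the LAGIPRA mean is the lowest.

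Each marker was set against its mean over the 24 libraries, and the mean of Trem2 and Gpnmb was taken from that of Folr2, Lyve1 and Timd4. This difference, a description with no test, averaged 0.20 ± 0.78 in TZP, 0.71 ± 0.68 in LAGIPRA, -0.81 ± 0.80 in PairFedVehicle and -0.10 ± 0.67 in Vehicle (SD, n = 6 each). Relative to Vehicle it was 0.30 in TZP, 0.81 in LAGIPRA and -0.71 in PairFedVehicle. Single libraries moved it: the TZP value ran from 0.146 without TZP 4 to 0.526 without TZP 6, and changed by over 1.5 times also without TZP 3, TZP 5, Vehicle 1, Vehicle 3 or Vehicle 6. The PairFedVehicle value was -0.401 without PairFedVehicle 5 and reached -0.859 without PairFedVehicle 1, and the LAGIPRA value ran from 0.661 to 1.04. In LAGIPRA the lipid-associated mean was low, at -0.68 against 0.28 in Vehicle, while the resident-type mean was 0.03 in LAGIPRA and 0.18 in Vehicle. That resident-type mean joins unlike members: against Vehicle, Folr2 was at -0.81 and Lyve1 at -0.02. Timd4, near the detection floor, was at 0.39 (SE 0.39, limma with no filter, adjusted p = 0.550). In PairFedVehicle the resident-type mean was low, at -0.43 against 0.18 in Vehicle. The lipid-associated mean was 0.38 there, close to the 0.28 in Vehicle. The PairFedVehicle range, -2.36 to -0.07, overlapped that of every other group. With Lyve1 left out, the values relative to Vehicle were 0.23 in TZP, 0.75 in LAGIPRA and -0.46 in PairFedVehicle.

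Across the 24 libraries, Folr2 tracked Trem2 (Pearson r = 0.93, Spearman rho = 0.92) and Gpnmb (r = 0.86, rho = 0.90), and Trem2 tracked Gpnmb (r = 0.96, rho = 0.96). Each of these had a permutation p of 1e-05, the smallest that 100000 permutations can give, and an adjusted p of 3.33e-05 over the 10 pairs tested. Without the 2 libraries farthest from the median of the first gene, r was 0.92, 0.85 and 0.95 in the same order, and with group means removed it was 0.93, 0.88 and 0.96. Within each group, Folr2 and Trem2 had r between 0.89 in LAGIPRA and 0.97 in Vehicle (n = 6 each, no test). No relation passed the test between Lyve1 and Trem2 (r = -0.06, rho = -0.10, adjusted p = 0.774 and 0.653) or between Lyve1 and Folr2 (r = 0.10, rho = 0.10, adjusted p = 0.698 and 0.653). With group means removed, r was 0.17 for Lyve1 and Trem2 and 0.30 for Lyve1 and Folr2, neither of them tested. Lyve1 and Timd4 had r = 0.49 and rho = 0.61 (adjusted p = 0.0280 and 0.00462 by permutation), with r = 0.34 once group means were removed. Timd4 and Gpnmb had an inverse relation by Pearson's r, -0.49 (adjusted p = 0.0280 by permutation), but not by Spearman's rho, -0.39 (adjusted p = 0.124), and r was -0.28 without the 2 libraries farthest from the median of Timd4. The other 3 pairs, Folr2 with Timd4, Lyve1 with Gpnmb and Timd4 with Trem2, did not pass (r = -0.23, -0.21 and -0.38). All of these libraries share their depth and muscle content between the genes compared, and whether these set the relations was not tested. Correlations with the other members were not computed. Whether Folr2 tracked Trem2 and Gpnmb more closely than macrophage genes in general was therefore not tested.

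**Figure D4:**
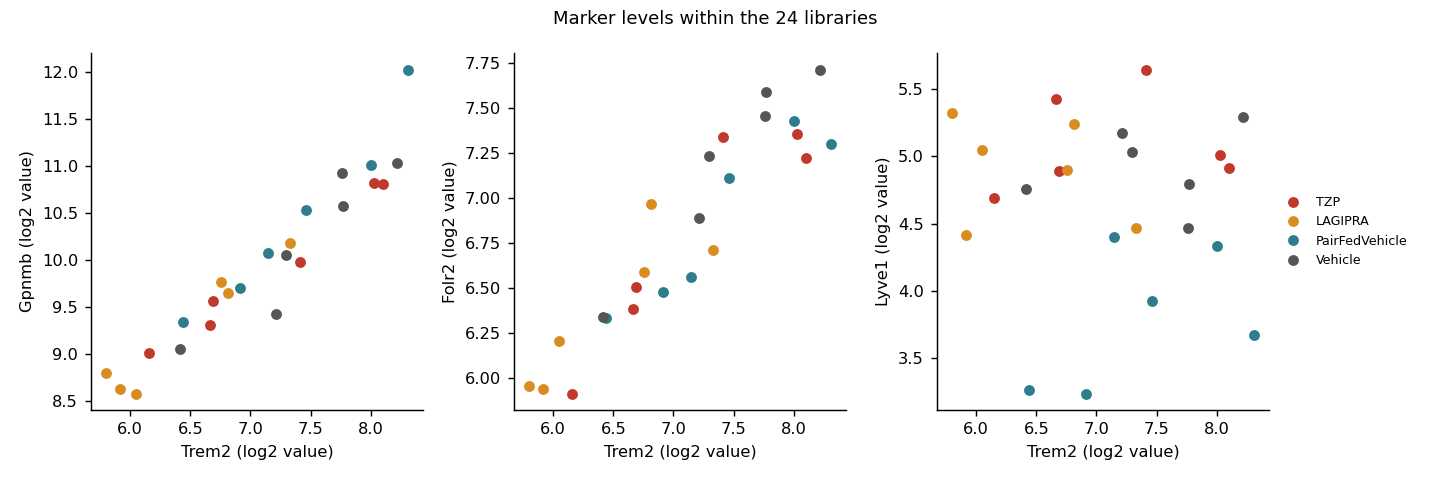
Each point is 1 of the 24 libraries, coloured by group, with the log2 value of Trem2 on the x axis and that of Gpnmb, Folr2 or Lyve1 on the y axis. Gpnmb and Folr2 climb with Trem2 (r = 0.96 and 0.93), whereas Lyve1 does not (r = -0.06).

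The agonist groups were set directly against each other and against the pair-fed group. For TZP against LAGIPRA, 0 of 31 members were called and 0 had an unadjusted p below 0.05 (limma). Of all tested genes, 0.0521% were called higher and 0.348% lower, and 16.4% had an unadjusted p below 0.05. No member was free of overlap, where 0.353% of all tested genes lay wholly higher and 0.458% wholly lower. The median log2 fold change of the members was 0.34, against 0.01 over all tested genes, and 3 of 31 were negative. Intervals were wide: the difference was 0.73 for Trem2 (SE 0.37), 0.64 for Cd68 (95% interval -0.07 to 1.35), 0.33 for C1qa (-0.09 to 0.76) and -0.14 for Mrc1 (-0.63 to 0.36). The greater number of calls in LAGIPRA than in TZP is not itself a tested difference between the agonists. LAGIPRA against PairFedVehicle gave Lyve1 as higher and Fcgr1 as lower, where 4.55% of all tested genes were called lower, with a median of -0.60 over the members. At an unadjusted p below 0.05, 14 members passed, where 26% of all tested genes did, and 0 members lay wholly lower, where 2.15% did. The Fcgr1 call was lost without LAGIPRA 4 or 5, without PairFedVehicle 2, 4 or 5 (adjusted p up to 0.0709 among these), without the 3 libraries lowest in muscle markers (adjusted p = 0.0635) and with the 1-read level as a covariate (adjusted p = 0.124). TZP against PairFedVehicle gave Lyve1 as higher and 0 members as lower (limma), where 8.02% of all tested genes were called lower and 1.76% lay wholly lower. The median there was -0.28, and 2 members had an unadjusted p below 0.05, where 29.6% of all tested genes did.

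The growth factor gene Csf1, which is not among the 32, fell in all 3 groups against Vehicle. It had 5.51, 5.81 and 6.22 in TZP, 5.44, 6.10 and 6.40 in LAGIPRA, 5.60, 5.81 and 5.97 in PairFedVehicle, and 6.59, 6.67 and 6.96 in Vehicle. All 18 libraries of the other groups lay below all 6 of Vehicle. The log2 fold change was -0.93 in TZP (SE 0.14, adjusted p = 0.000431), -0.74 in LAGIPRA (SE 0.14, adjusted p = 0.00514) and -0.94 in PairFedVehicle (SE 0.14, adjusted p = 9.67e-05). These calls held in 39 of 39, 38 of 39 and 39 of 39 alternatives. Il34, the other ligand, was not called (0.20, -0.10 and 0.11 in TZP, LAGIPRA and PairFedVehicle). Csf2rb, the shared receptor chain for GM-CSF and related cytokines, fell by 1.01 in TZP (adjusted p = 0.000644) and by 0.60 in LAGIPRA (adjusted p = 0.0192) against Vehicle, calls lost in 1 and 4 of 39 alternatives. Of the 5 growth factor and receptor genes in the table, Csf1r included, 2 were called lower in TZP, 2 in LAGIPRA and 1 in PairFedVehicle, and none higher. Over all tested genes, 10.3% were called lower in TZP, 5.03% in LAGIPRA and 3.66% in PairFedVehicle. The median log2 fold change of the 5 genes against Vehicle was -0.51 in TZP, -0.53 in LAGIPRA and -0.12 in PairFedVehicle, beside medians of 0.04, 0.03 and 0.02 over all tested genes.

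**Figure D5:**
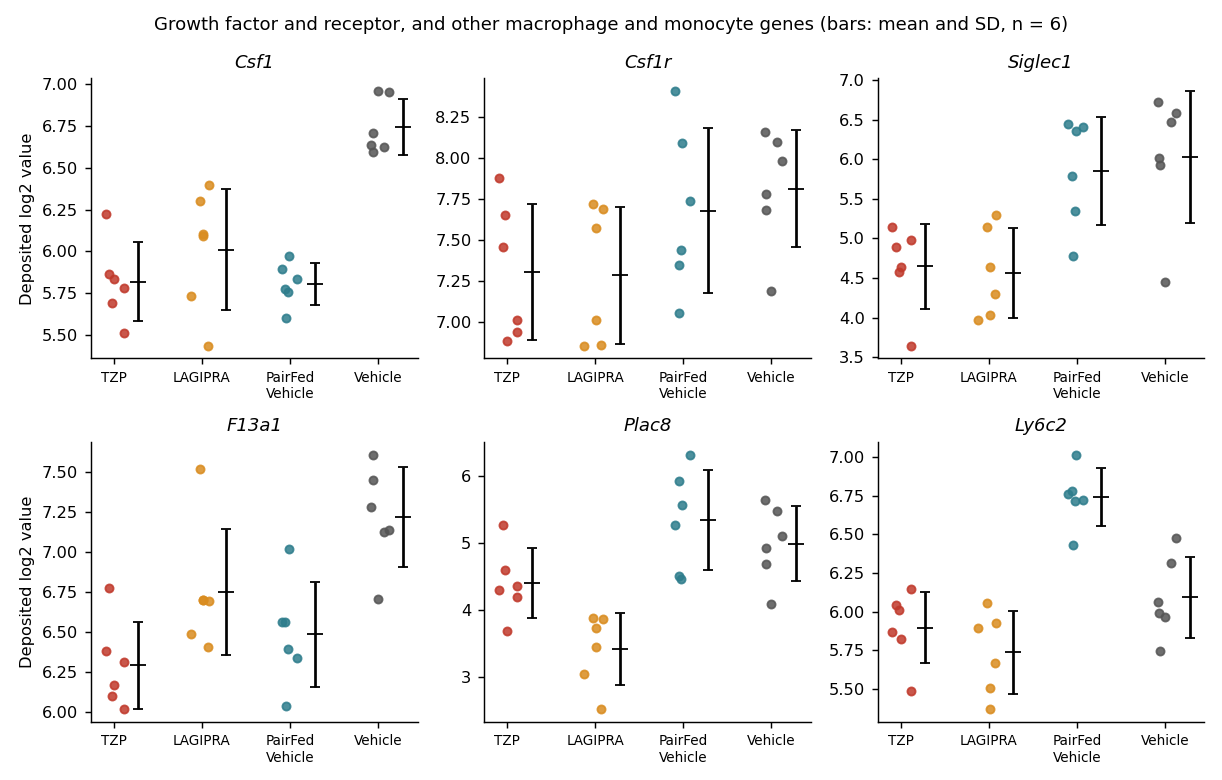
Deposited log2 values of the growth factor Csf1 and its receptor Csf1r, of Siglec1 and F13a1, and of the monocyte genes Plac8 and Ly6c2, 1 point per library, with mean and SD beside each group of 6. Vehicle lies above all other libraries for Csf1, LAGIPRA below all Vehicle libraries for Plac8, and PairFedVehicle is highest on average for Ly6c2.

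Of 12 tested genes on a list of other resident-type macrophage genes, 3 fell in TZP, 3 in LAGIPRA and 3 in PairFedVehicle against Vehicle, where 10.3%, 5.03% and 3.66% of all tested genes were called lower in the same comparisons, and 0 rose. The list's median log2 fold change was -0.31 in TZP, -0.31 in LAGIPRA and -0.16 in PairFedVehicle. Siglec1, the sialic acid receptor CD169, had 3.65, 4.77 and 5.14 in TZP, 3.97, 4.47 and 5.30 in LAGIPRA, 4.78, 6.07 and 6.45 in PairFedVehicle, and 4.46, 6.24 and 6.72 in Vehicle. The log2 fold change of Siglec1 was -1.38 in TZP (SE 0.36, adjusted p = 0.00962) and -1.46 in LAGIPRA (SE 0.36, adjusted p = 0.0143) against Vehicle, and -1.21 in TZP (adjusted p = 0.0241) and -1.29 in LAGIPRA (adjusted p = 0.0213) against PairFedVehicle. In TZP and LAGIPRA, Stab1, a scavenger receptor of macrophages and some endothelium, also fell (-0.98 and -0.85, adjusted p = 0.00389 and 0.0163). F13a1, a coagulation factor subunit made by resident macrophages, fell in TZP and PairFedVehicle (-0.92 and -0.73, adjusted p = 0.00174 and 0.0127), the chemokine Pf4 in LAGIPRA (7.75 ± 0.26 against 8.74 ± 0.41 in Vehicle, SD, n = 6 each, adjusted p = 0.0213), and Cbr2 and Gas6 in PairFedVehicle (-0.77 and -0.36, adjusted p = 0.00719 and 0.0272). In PairFedVehicle against Vehicle, Stab1, Siglec1 and Folr2 were not called, at log2 fold changes of -0.59, -0.17 and -0.34. Of the calls in this paragraph, those of Siglec1 against PairFedVehicle were lost in 8 (TZP) and 7 (LAGIPRA) of 39 alternatives, Gas6 in 7 and Pf4 in 5, and the others in at most 3.

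Of 14 other lipid-associated genes, 1 fell in TZP (Apoe), 2 in LAGIPRA (Fabp5 and Lipa) and 0 in PairFedVehicle, where Apoe rose; 3 of the 14 had an unadjusted p below 0.05 there (limma), near the 23% of all tested genes that did. The share called lower in TZP was below the 10.3% of all tested genes, that in LAGIPRA stands beside 5.03%, and the gene that rose in PairFedVehicle beside 4.96%. Medians were -0.26 in TZP, -0.52 in LAGIPRA and -0.02 in PairFedVehicle. Apoe, a lipid carrier that many cell types make, averaged 11.07 ± 0.29 in TZP, 11.20 ± 0.15 in LAGIPRA, 11.99 ± 0.27 in PairFedVehicle and 11.49 ± 0.22 in Vehicle (SD, n = 6 each). Apoe had a log2 fold change of 0.49 in PairFedVehicle (adjusted p = 0.0215) and -0.43 in TZP (adjusted p = 0.0251) against Vehicle, and -0.92 (adjusted p = 9.63e-05) in TZP and -0.79 (adjusted p = 0.000414) in LAGIPRA against PairFedVehicle. Fabp5, a fatty acid binding protein, had -0.58 (adjusted p = 0.0308) and Lipa, lysosomal acid lipase, -0.51 (adjusted p = 0.0460) in LAGIPRA against Vehicle. Spp1, osteopontin, spread from 3.66 to 8.35 over LAGIPRA and Vehicle libraries and was not called (-1.81, SE 0.72, adjusted p = 0.0903). The Lipa call against Vehicle was lost in 22 of 39 alternatives, and kept in 11 of the 24 fits that left out 1 library. Those of Fabp5 in LAGIPRA and of Apoe in TZP and PairFedVehicle against Vehicle were lost in 9, 8 and 2 of 39.

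Of 8 tested monocyte genes, 2 fell in LAGIPRA, 0 were called in TZP, and 1 rose and 1 fell in PairFedVehicle against Vehicle; 2 of the 8 had an unadjusted p below 0.05 in TZP (limma), a share below the 35.7% of all tested genes that did. Of all tested genes, 10.3% were called lower in TZP, 5.03% in LAGIPRA and 3.66% in PairFedVehicle, and 4.96% higher in PairFedVehicle. Medians were -0.39 in TZP, -0.50 in LAGIPRA and -0.10 in PairFedVehicle. Plac8, a small protein of monocytes and other leukocytes, had 2.52, 3.59 and 3.87 in LAGIPRA and 4.09, 5.02 and 5.64 in Vehicle, without overlap, a log2 fold change of -1.58 (SE 0.33, adjusted p = 0.00726). Ms4a4c fell by 2.29 on the log2 scale in LAGIPRA (SE 0.48, adjusted p = 0.00726). Ly6c2, the Ly6C antigen of classical monocytes that some endothelium also carries, averaged 6.74 ± 0.19 in PairFedVehicle and 6.09 ± 0.26 in Vehicle (SD, n = 6 each; log2 fold change 0.65, adjusted p = 0.00385), and Vcan fell there by 0.73 (adjusted p = 0.0325), a call lost in 12 of 38 alternatives. The Ly6c2 call was kept in 39 of 39, and those of Plac8 and Ms4a4c in LAGIPRA were lost in 1 of 38 each. S100a9, a marker of neutrophils and monocytes, was also higher in PairFedVehicle, at a log2 fold change of 1.29 (adjusted p = 0.000317). Ccr2, the receptor that draws monocytes into tissue, had -1.12 in TZP and -1.18 in LAGIPRA (adjusted p = 0.0579 and 0.0596).

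Of 12 tested activation genes, 4 fell and 1 rose in LAGIPRA, 2 fell in TZP and 0 were called in PairFedVehicle, where 1 had an unadjusted p below 0.05 (limma). Of all tested genes, 5.03% were called lower and 8.7% higher in LAGIPRA, and 10.3% lower in TZP. The list's median was -0.60 in TZP, -0.69 in LAGIPRA and -0.27 in PairFedVehicle. Hmox1, haem oxygenase, had 7.76, 8.59 and 9.18 in LAGIPRA and 9.18, 10.31 and 10.63 in Vehicle (log2 fold change -1.57, SE 0.34, adjusted p = 0.00891), and fell by 0.95 in TZP (adjusted p = 0.0493). The TZP call was lost in 22 of 39 alternatives and kept in 9 of the 24 fits that left out 1 library; the LAGIPRA call was lost in 1 of 39. Chil3, a chitinase-like protein, fell by 1.99 in LAGIPRA (adjusted p = 0.0136), Il10 by 1.83 (adjusted p = 0.0221) and the costimulatory receptor Cd40 by 0.75 (adjusted p = 0.0254). Cd40 also fell in TZP, by 0.71 (adjusted p = 0.0205). Retnla, which adipose tissue macrophages and adipocytes can make, averaged 8.24 ± 0.31 in LAGIPRA and 7.33 ± 0.61 in Vehicle (SD, n = 6 each) and rose (log2 fold change 0.91, adjusted p = 0.0307). Of the other calls, Cd40 was lost in 6 of 38 alternatives in TZP and 7 of 38 in LAGIPRA, Il10 in 6 of 38, Retnla in 6 of 39 and Chil3 in 1 of 38.

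Of 11 myeloid transcription factors, Spi1 included, 2 rose and 2 fell in TZP, 1 rose and 3 fell in LAGIPRA, and 1 rose and 1 fell in PairFedVehicle against Vehicle. Of all tested genes, 11.7% were called higher and 10.3% lower in TZP, 8.7% and 5.03% in LAGIPRA, and 4.96% and 3.66% in PairFedVehicle. The list's median was -0.45 in TZP, -0.69 in LAGIPRA and -0.20 in PairFedVehicle. Zeb2 fell in all 3, by 1.44 in TZP (adjusted p = 0.000198), 0.69 in LAGIPRA (adjusted p = 0.0163) and 0.62 in PairFedVehicle (adjusted p = 0.0302). Nr1h3, the oxysterol receptor LXR-alpha, which adipocytes also express, rose in all 3, by 0.22 (adjusted p = 0.00458), 0.20 (adjusted p = 0.0161) and 0.25 (adjusted p = 0.00255) in the order TZP, LAGIPRA, PairFedVehicle. Runx1 fell in TZP (-0.997, adjusted p = 0.0309), Irf5 in LAGIPRA (-0.92, adjusted p = 0.0445), and Cebpb was called higher in TZP (0.38, adjusted p = 0.0489). The Cebpb call in TZP against Vehicle was lost in 26 of 39 alternatives and kept in 8 of the 24 fits that left out 1 library. Cebpb was also higher than in PairFedVehicle, by 0.73 in TZP (limma adjusted p = 0.000978) and by 0.55 in LAGIPRA (adjusted p = 0.00908). Those 2 calls were kept in 39 of 39 alternatives each. Of the calls against Vehicle, Irf5 was lost in 16 of 39 and Runx1 in 9 of 38. Zeb2 was lost in 4 of 39 in PairFedVehicle, in 1 in LAGIPRA and in none in TZP, and Nr1h3 in 2 in TZP, 1 in LAGIPRA and none in PairFedVehicle. The 3 comparisons share Vehicle, and the lists are described by their counts, with no test of the lists themselves.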

How the data were processed

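Poly(A) RNA of brown adipose tissue was measured in 24 libraries, 6 per group, and groups follow the treatment labels. The values as deposited by the authors are taken to be log2 gene values that were quantile normalized, on a scale inferred from the values with an offset near 1; they ran from -0.50 to 22.35. Per the submitters' processing notes, cutadapt 1.9.1 and GSNAP 2013-11-27 were used; not given in the sources used here are the genome build, the annotation, the counting tool and any use of strand. Read totals were not analysed here, so depth is unknown; the 1-read level stands in for it and was not checked against read counts.

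The 25% of genes with the lowest mean (below 2.86) were left out. One mean per group was fitted to all 24 libraries with limma 3.58.1 in R 4.3.3, with empirical Bayes moderation and a mean-variance trend, two-sided, and adjusted by Benjamini-Hochberg over the 17263 tested genes. The procedure was tested on simulated data. Transcript lengths (GENCODE mouse) were known for 90.2% of tested genes. Figures used matplotlib 3.10.9.

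Members and lists were chosen with earlier results of these data known. Members were described in full where called in at least 1 of 6 comparisons, or as one of Folr2, Lyve1, Timd4, Trem2, Gpnmb, Adgre1, Cd68, Csf1r and Spi1. Of the other macrophage and monocyte lists, genes called against Vehicle were named, up to 4 per list and comparison. Further genes were named after their values were seen. Calls of these lists against PairFedVehicle were named only in part, as were called markers of other cell types. Csf2, Ly6g, Camp and Mpo were not analysed here. Alternatives were other filters, weights, variance models, covariates, normalizations, a replicate block, thresholds and the removal of libraries.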

Additional observations from a re-analysis of the deposited data

Results flagged for a closer look

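C1qa in TZP had its lowest value in TZP 1, 9.11, apart from the next lowest TZP library at 9.74. Mrc1 in Vehicle had its lowest value in Vehicle 5, 6.41, apart from the next lowest at 7.30. These are 2 single low values among 128 sets of 6 libraries examined, and chance gives about 1 in 20 of them.

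The effects of 2 treatments against Vehicle differed for 2 genes, as tested by their direct comparison in limma. Lyve1 was higher in TZP than in PairFedVehicle by 1.29 on the log2 scale (adjusted p = 0.000469; higher in 6 of 6 TZP libraries than in any PairFedVehicle library). Lyve1 was also higher in LAGIPRA than in PairFedVehicle, by 1.09 (adjusted p = 0.00198; 6 of 6 likewise). Fcgr1 had a log2 fold change of -1.40 in LAGIPRA against PairFedVehicle (adjusted p = 0.0246), with overlapping libraries. For TZP against PairFedVehicle, 8.39% of all tested genes were called higher and 8.02% lower, and 3.17% lay wholly higher. For LAGIPRA against PairFedVehicle, 7.3% were called higher and 4.55% lower, and 3.7% lay wholly higher.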

How the results depend on the processing

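Values were recomputed under 39 alternatives per gene at most. The count of members lower in LAGIPRA than in Vehicle, 13 as reported, was 7 with no filter, 24 with array weights, 7 with a replicate block, 0 with the 1-read level as a covariate, 6 with the muscle mean as a covariate, 6 without the 3 libraries lowest in muscle markers and 21 at a threshold of 0.1; leaving out each library gave 4 to 24. The count lower in TZP than in Vehicle, 2, was 0 with the length slope as a covariate, 7 after length correction, 1 with the 1-read level as a covariate, 1 with TZP 1 and 2 alone and 5 at a threshold of 0.1, and 2 to 10 without 1 library. The count lower in PairFedVehicle than in Vehicle, 1, was 3 with array weights and 2 at a threshold of 0.1, and 1 to 3 without 1 library. Lower in LAGIPRA than in PairFedVehicle, 1 as reported, gave 9 with array weights, 0 with the 1-read level as a covariate, 0 without the 3 low-muscle libraries and 6 at a threshold of 0.1, and 0 to 8 without 1 library. Higher in LAGIPRA than in PairFedVehicle, 1, gave 2 with the lowest 50% of genes left out, 2 with array weights, 2 with the length slope as a covariate, 2 with TZP 1 and 2 alone and 2 at a threshold of 0.1, and 1 to 2 without 1 library. Lower in TZP than in PairFedVehicle, 0, gave 1 with the muscle mean as a covariate and 1 at a threshold of 0.1, and 0 to 1 without 1 library. Higher in TZP than in PairFedVehicle, 1, gave 0 with TZP 1 and 2 alone. The cause of these shifts was not tested. Except for LAGIPRA against Vehicle with the 1-read level, calls over all tested genes in these fits are not given, here or above. The shifts are therefore not read as particular to macrophage genes.

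Signs turned for uncalled genes. With the 1-read level as a covariate the log2 fold changes against Vehicle became 0.0060 for Folr2, 0.29 for Trem2, 0.42 for Gpnmb, 0.12 for Cd68 and 0.012 for Spi1 in TZP, 0.084 for Lyve1 in LAGIPRA, and 0.14 for Trem2 and 0.10 for Cd68 in PairFedVehicle. For TZP against PairFedVehicle they became 0.19 for Folr2, 0.15 for Trem2, 0.0066 for Adgre1, 0.017 for Cd68 and 0.10 for Spi1, and for TZP against LAGIPRA -0.028 for Csf1r. Csf1r in TZP against LAGIPRA was also -0.088 with the length slope, -0.077 with the muscle mean and -0.10 without the 3 low-muscle libraries, and Lyve1 in TZP against Vehicle was -0.010 with the length slope. With TZP 1 and 2 alone, Lyve1 against Vehicle was -0.13, and TZP against LAGIPRA gave -0.19 for Folr2, -0.10 for Lyve1, -0.022 for Trem2, -0.17 for Adgre1, -0.0044 for Cd68, -0.34 for Csf1r and -0.17 for Spi1. Leaving out each library gave -0.11 to 0.074 for Lyve1 in LAGIPRA against Vehicle; -0.27 to 0.12 for Trem2, -0.28 to 0.12 for Cd68, -0.40 to 0.0040 for Adgre1 and -0.049 to 0.49 for Gpnmb in PairFedVehicle against Vehicle; -0.10 to 0.11 for Csf1r in TZP against LAGIPRA; and -0.20 to 0.093 for Folr2 in TZP against PairFedVehicle. The resident-type minus lipid-associated difference kept its direction in every alternative run for it. The length slope, the 1-read level and the muscle mean were not run as covariates for this difference, so its direction under them is unknown.

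Replicate numbers gave no sign of pairing, which does not exclude it. Same-numbered libraries had correlations of -0.60 to 0.38, with 12 of 36 over 0.1. Different-numbered libraries of different groups had -0.57 to 0.64, with 59 of 180 over 0.1. The unknown depth limits the low genes most, Timd4 first.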
